A study of Mus musculus with 46 samples.

Results

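CD4+CD8+ double-positive (DP) thymocytes sorted from LMO2 transgenic mice were compared with DP thymocytes of wild-type mice by RNA sequencing. All 19521 genes of the deposited count table entered, and the libraries were chosen by their genotype and cell-type labels. They are 6 of the series' 40 RNA libraries, 3 transgenic and 3 wild-type. The transgenic mice are labelled as hCD2-LMO2 knock-in and the others as wild type, both of strain C57BL/6 and kept under specific-pathogen-free conditions, with no treatment, age or pooling of animals given. The name places LMO2 beside human CD2, whose control elements are widely used to drive transgenes in the T-cell lineage, so the transgene acts in T cells before the DP stage as well as in it. The labels do not say that replicates came from separate mice, so the p-values measure the spread between these libraries, which may be technical in part. The series also follows other thymic stages and splenic T cells, of which the CD25+ DN3 thymocytes and CD8 single-positive (CD8SP) thymocytes are used for comparison, with 3 libraries per genotype each.

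LMO2 has no DNA-binding domain. It bridges bHLH proteins such as TAL1 and LYL1, with their E-protein partners, to GATA factors through LDB1 in blood stem and progenitor cells, and its gene is normally shut off as thymocytes commit to the T lineage. Kept on in T-cell precursors, the gene is an oncogene known from T-cell leukaemia. DP thymocytes are the stage that follows the pre-T-cell receptor checkpoint: they have stopped most Notch signalling, rearrange the T-cell receptor alpha locus with RAG1 and RAG2, and await selection.

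Levels below are in CPM, with library sizes scaled by TMM within the stage. Lmo2 itself did not follow the labels. It stood at 76.6 and 67.6 CPM in transgenic replicates 1 and 2, at 0.383 CPM in the library labelled transgenic replicate 3, and at 0.451, 0.117 and 0.233 CPM in the wild-type libraries. That library lay within the wild-type range, whereas the other 23 transgenic libraries of the series held between 17.3 and 83.5 CPM. In the deposited FPKM, which divides by gene length, Lmo2 reached 49.5 and 43.2 in replicates 1 and 2, while Ldb1, the cofactor it binds, was at 225 and 210. Over all 6 libraries Lmo2 differed with an unadjusted p of 0.0025 and an adjusted p of 0.213 (edgeR quasi-likelihood test, Benjamini-Hochberg). Without the library labelled transgenic replicate 3 its level is given as a description, with no test, because that library is left out for its Lmo2 level.

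Further properties set libraries apart. The library labelled transgenic replicate 3 held a summed level of 4 Y-linked genes under 1 CPM. It is 1 of 6 such libraries among the 40, of which 4 are transgenic and 2 wild-type and 4 come from DN3, and the other libraries lay between 97.7 and 496 CPM. Its log2 levels correlated across genes at r = 0.968 to 0.977 with the wild-type libraries, 0.939 with transgenic replicate 1 and 0.913 with replicate 2. Wild-type replicates 2 and 3 were closest to each other (r = 0.996), and wild-type replicate 1 stood away from both (0.959 and 0.96). It was nearer to transgenic replicates 1 and 2 (0.945 and 0.922) than wild-type replicates 2 and 3 were (0.875 to 0.891). Hspa1b was at 26.1 CPM in wild-type replicate 1 against 0.973 and 0.427, and Mki67 at 381 CPM against 1450 and 1203. No pair of replicates agreed within counting noise (chi-square per degree of freedom 8.1 for wild-type replicates 2 and 3, and 73.7 to 126 for the other pairs). Total counts per DP library were 21771319 to 28597594. Whether these differences had a part in the results was not tested.

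With all 6 libraries, edgeR's quasi-likelihood test called 0 of 11649 genes (0%) at an adjusted p of 0.05. At an unadjusted p under 0.05 there were 2450 genes (21%), 1382 higher (11.9%) and 1068 lower (9.17%), and DESeq2 called 617 (5.29%), 327 higher and 290 lower. The 3 transgenic-labelled libraries all lay above the 3 wild-type ones for 1516 genes (13%) and all below for 1106 (9.49%). Without the library labelled transgenic replicate 3, the same edgeR test called 906 of 11919 genes (7.6%), 569 higher (4.77%) and 337 lower (2.83%). Of these, 420 (3.52%) were higher and 256 (2.15%) lower by 2-fold or more. DESeq2 on those 5 libraries called 2878 genes (23.6%), 1244 higher and 1634 lower, so its split leaned the other way. The design text calls samples paired without saying what a replicate number shares, and with a term for that number the count was 378. The count also moved with the libraries used. Leaving out transgenic replicate 2 as well gave 130 calls, and leaving out wild-type replicate 1, 2 or 3 gave 4347, 214 or 235. Below, "rose" and "fell" refer to these 906 calls (Lmo2 among them), folds and standard errors (SE) are log2 values of the fit of 5 libraries, and adjusted p-values are edgeR's with Benjamini-Hochberg adjustment. Of the genes named by rule other than Lmo2, 88 were called, and 25 of them stayed called with each of the 5 libraries left out in turn.

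**Figure D1:**
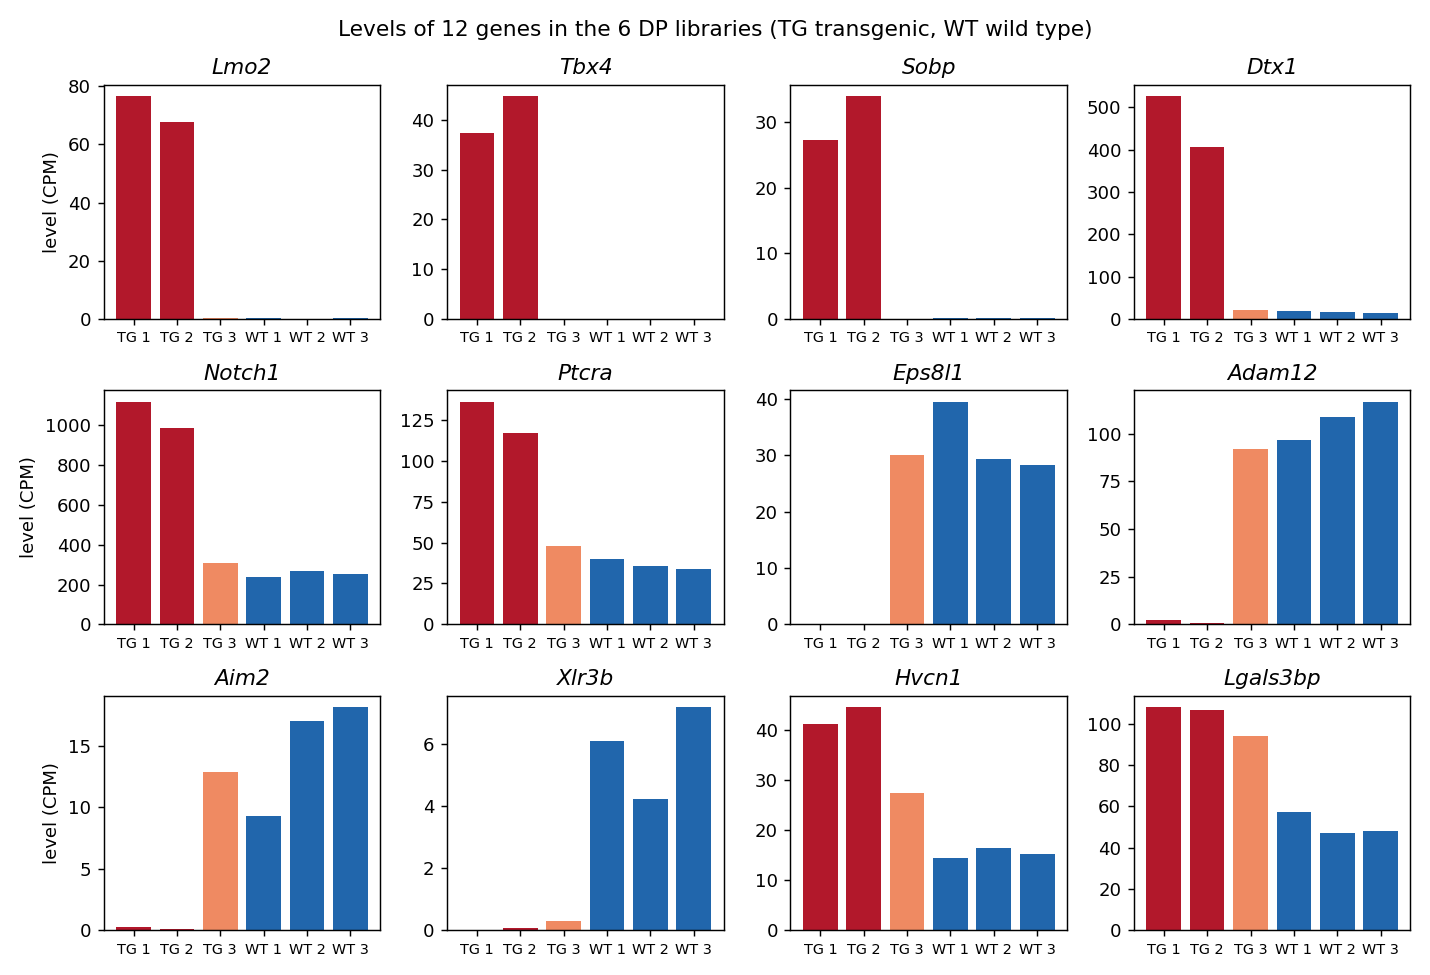
Level in CPM (y axis, from 0, a scale per gene) of 12 genes in each DP library, with transgenic (TG) replicates 1 and 2 in red, the library labelled transgenic replicate 3 in orange and wild-type (WT) libraries in blue. For Lmo2, Tbx4, Sobp, Eps8l1, Adam12 and Aim2 the orange bar is far from the red ones and near the blue ones, whereas for Xlr3b and Lgals3bp it is on the side of the red ones.

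Of 30 tested Notch receptors and targets 9 rose and 1 fell in transgenic replicates 1 and 2. That is 33.3% of the list, beside 7.6% of all genes tested (4.77% higher and 2.83% lower). Notch receptors are cleaved on ligand contact, and the freed intracellular part switches on target genes with RBPJ; the pathway is active before the DP stage. The list's median log2 difference was 0.46 against 0.03 over all genes tested. Its summed level was 13900 and 12981 CPM in transgenic replicates 1 and 2, 11147 in the library labelled transgenic replicate 3, and 13676, 10424 and 10178 in the wild type, so that wild-type replicate 1 overlapped replicates 1 and 2. Without transgenic replicate 2 the list had 7 higher and 0 lower, and without wild-type replicate 1 it had 11 higher and 3 lower.

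Both receptors on the list that are best known in thymocytes rose. Notch1 stood at 1118 and 987 CPM in transgenic replicates 1 and 2, 307 in the library labelled transgenic replicate 3, and 236, 266 and 255 in the wild-type libraries. The groups did not overlap, and that library lay just above the wild-type ones. The log2 fold of Notch1 was 2.06 (SE 0.16, adjusted p = 0.00283), and that of Notch3, at 232 and 401 CPM against 62.9, 59.5 and 64.3 with 72.9 in the library labelled transgenic replicate 3, was 2.34 (SE 0.24, adjusted p = 0.00689). Dtx1 encodes the ubiquitin ligase Deltex and is a classical Notch target. Its levels were 526 and 406 CPM in transgenic replicates 1 and 2, 21.0 in the library labelled transgenic replicate 3, and 19.6, 17.0 and 12.7 in the wild type, a log2 fold of 4.82 (SE 0.25, adjusted p = 0.000621). Hes1, a repressor that Notch induces, stood at 5.42 and 6.22 CPM against 0.405, 0.389 and 0.271, with 0.417 in the library labelled transgenic replicate 3 (log2 fold 4.01, SE 0.40, adjusted p = 0.00562). Both targets were thus near the wild-type level in that library.

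Ptcra encodes the invariant pre-T-cell receptor alpha chain. It stood at 136 and 117 CPM in transgenic replicates 1 and 2, 48.1 in the library labelled transgenic replicate 3, and 39.8, 35.6 and 33.6 in the wild-type libraries (log2 fold 1.80, SE 0.16, adjusted p = 0.00463). The remaining calls were Heyl (log2 fold 5.05), another repressor of the Hes family, Spib (2.12), an ETS factor of early progenitors, Il2ra (1.88), the CD25 chain of the IL-2 receptor, and the receptor tyrosine kinase gene Ephb2 (1.88). Igf1r, the receptor of insulin-like growth factor 1, fell (-1.62). In the fit of all 6 libraries 12 list members had an unadjusted p under 0.05 upward and 1 downward. Dtx1, Notch1, Notch3, Hes1, Ptcra and Il2ra stayed called with each of the 5 libraries left out.

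The bases before the RefSeq start of Ptcra on GRCm38.p6 (chr17:46763713-46763962, minus strand) are shown because this gene rose in DP and was lower in transgenic DN3 cells, given below. The window is 250 bases long. Capitals mark TGGGAA, the core that RBPJ binds, and CANNTG, the E-box of bHLH proteins; both strands were searched and no matches overlap. It held 2 of each, and of all 32851 promoter windows of that length 21.6% held TGGGAA and 66.2% CANNTG.
Ptcra: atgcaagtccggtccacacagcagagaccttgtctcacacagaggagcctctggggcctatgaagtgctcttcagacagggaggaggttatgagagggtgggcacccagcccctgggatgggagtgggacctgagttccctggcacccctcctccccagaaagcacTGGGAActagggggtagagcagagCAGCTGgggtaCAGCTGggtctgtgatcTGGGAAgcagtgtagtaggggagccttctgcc
The same windows of Dtx1, Notch1 and Notch3 held neither string. A match is only a run of letters, and no binding was measured from it here.

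Among the largest increases by rule, the cleanest were genes silent in wild-type DP cells. Tbx4, a T-box transcription factor gene of limb development, stood at 37.4 and 44.8 CPM in transgenic replicates 1 and 2 and at 0 in the library labelled transgenic replicate 3 and in the wild-type libraries. Lalba, the alpha-lactalbumin gene, was at 10.2 and 12 CPM against 0 in the 4 other libraries. Sobp was at 27.3 and 34.0 CPM, 0 in the library labelled transgenic replicate 3, and 0.135, 0.0778 and 0.116 in the wild type (log2 fold 8.07, SE 0.32, adjusted p = 0.000591). Transgenic replicates 1 and 2 were close to each other for these genes, and the groups of the 5 libraries did not overlap. Each stayed called with any of the 5 libraries left out. No fold is given where a group held 3 counts or fewer.

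The window before the start of Tbx4 (chr11:85896515-85896764, plus strand, GRCm38.p6) is shown as that of the largest increase. It held 3 E-boxes, in capitals, and no TGGGAA.
Tbx4: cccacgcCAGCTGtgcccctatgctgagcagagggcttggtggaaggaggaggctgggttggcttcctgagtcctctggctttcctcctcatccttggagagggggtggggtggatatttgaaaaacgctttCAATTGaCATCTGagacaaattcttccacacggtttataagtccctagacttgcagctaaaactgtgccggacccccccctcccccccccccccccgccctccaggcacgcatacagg

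Other large increases differed between the transgenic replicates. Cpa3, the mast-cell carboxypeptidase gene that early progenitors also express, was at 3.41 CPM in replicate 1 and 168 in replicate 2, against at most 0.315 in the wild type. Mdga1 (1.54 and 86.5 CPM), Neo1 (1.97 and 19.6), which encodes the receptor neogenin, Ephb4 (0.825 and 16.6) and Olfm5 (0.682 and 18.7) were likewise mainly signals of replicate 2. Ryr2, a calcium release channel gene, was at 4.45 and 16.8 CPM. Faxc (40.7 and 3.57 CPM) and Lypd1 (29.8 and 5.74) were instead higher in replicate 1. Of these 8 genes only Lypd1 stayed called with each library left out.

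Chosen after their values were seen, because they fall below the 12 largest folds but were even between the transgenic replicates, are Myh10, Yap1 and Bst1. Myh10, a non-muscle myosin heavy chain gene, stood at 115 and 138 CPM, 10.1 in the library labelled transgenic replicate 3, and 5.63, 6.89 and 6.94 in the wild type (log2 fold 4.28, SE 0.19, adjusted p = 0.000621). Yap1, the Hippo pathway coactivator, was at 43.4 and 54.6 CPM against 1.17, 0.778 and 0.621, with 1.43 in that library (5.84, SE 0.30). Bst1 (CD157) was at 33.1 and 46.8 CPM against at most 0.35 in the wild type and 0.244 in that library (7.33, SE 0.49).

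The largest decreases were mostly near-complete losses. Eps8l1, related to an actin regulator, had no count in transgenic replicates 1 and 2, and stood at 30.1 CPM in the library labelled transgenic replicate 3 and at 39.6, 29.4 and 28.3 in the wild type. Adam12, a membrane metalloprotease gene, was at 2.30 and 0.675 CPM against 96.5, 109 and 117, with 91.9 in that library (log2 fold -6.13, SE 0.49, adjusted p = 0.00296). Aim2, the cytosolic DNA sensor of an inflammasome, was at 0.215 and 0.0964 CPM against 9.28, 17.1 and 18.2, with 12.9 in that library (-6.48, SE 0.56, adjusted p = 0.00425). For these genes the library labelled transgenic replicate 3 was with the wild type or just below it.

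The window before the start of Aim2 (chr1:173420354-173420603, plus strand, GRCm38.p6) is shown as that of a gene almost lost in replicates 1 and 2. It held 1 E-box, in capitals, and no TGGGAA.
Aim2: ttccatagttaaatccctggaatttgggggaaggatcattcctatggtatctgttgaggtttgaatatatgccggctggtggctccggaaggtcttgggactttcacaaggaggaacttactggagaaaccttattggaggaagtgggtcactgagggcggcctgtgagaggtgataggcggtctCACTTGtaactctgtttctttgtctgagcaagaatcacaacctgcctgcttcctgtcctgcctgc

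Xlr3b, an X-linked lymphocyte-regulated gene, differed from that picture. It was at 0 and 0.0482 CPM in transgenic replicates 1 and 2 and also low, at 0.278, in the library labelled transgenic replicate 3, against 6.08, 4.20 and 7.17 in the wild type, so that the groups of 6 libraries did not overlap. Mgam (log2 fold -6.44), a maltase-glucoamylase gene, Tmem38b (-5.88), a cation channel of the endoplasmic reticulum, Pip5k1b (-5.53), a phosphoinositide kinase gene, and Arhgap24 (-4.53), a GTPase-activating protein gene, fell as well. The other decreases by rule were Cacna1e (-4.35), a calcium channel subunit, Apbb2 (-4.12), the orphan receptor gene Gprc5b (-3.94) and Tiparp (-3.89), an ADP-ribosyltransferase gene. Of these 12 decreases Pip5k1b, Cacna1e, Gprc5b and Tiparp lost their call in at least 1 fit with a library left out, and the other genes kept it in all 5.

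With all 6 libraries, the 10 genes of smallest unadjusted p by rule each had an adjusted p of 0.213, so none passed. In each of them the library labelled transgenic replicate 3 lay with replicates 1 and 2 beyond the wild-type range, which the rule required. Lgals3bp, a secreted galectin-binding glycoprotein gene, had the smallest p (0.000176). It stood at 108 and 107 CPM in transgenic replicates 1 and 2, 94.5 in that library, and 57.4, 47.0 and 48.0 in the wild type. Tmem173 (STING, the adaptor of cytosolic DNA sensing) was at 31.5, 27.7 and 20.5 CPM against 9.26 to 11.2, and Hvcn1, a voltage-gated proton channel gene, at 41.1, 44.6 and 27.4 against 14.3, 16.4 and 15.1. The class II-like gene H2-Oa, the centromere protein gene Cenpb and the magnesium transporter gene Slc41a3 were also higher in all 3. Xlr3b, Arv1, Gramd1a and the NF-kappaB inhibitor gene Nfkbid were lower in all 3. All 10 were called in the fit of 5 libraries, and of them Xlr3b, Tmem173 and Hvcn1 stayed called with each library left out.

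DP markers were abundant in every library. Cd4 was at 1874 to 2717 CPM, Cd8a at 2493 to 3559 and Rag1 at 5338 to 8393 over the 6 libraries, and none of these 3 was called. Of 30 tested genes of the DP programme 6 fell and 1 rose (23.3%, beside 7.6% of all genes), with a median log2 difference of -0.28. Rag2, the partner of RAG1, was at 227 and 177 CPM in transgenic replicates 1 and 2, 419 in the library labelled transgenic replicate 3, and 382, 520 and 531 in the wild type (log2 fold -1.24, SE 0.23, adjusted p = 0.0339). Ccr9, the receptor of the thymic chemokine CCL25, was at 739 and 743 CPM against 1418, 1305 and 1302, with 1172 in that library (-0.86, SE 0.16). Themis, a T-lineage adaptor of selection signals (-1.50), Rmnd5a (-0.93), Cd69 (-1.57) and Tdrd5 (-1.13) fell, and Endou (0.93) rose. None of the 7 was called without transgenic replicate 2, without wild-type replicate 2 or without wild-type replicate 3.

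Of 41 tested genes of T-cell receptor signalling 1 rose, Ptcra, and 3 fell, Themis, Malt1 (-1.13) and Tespa1 (-0.72), with a median of 0.05. These are 9.76% of the list, beside 7.6% of all genes. Without transgenic replicate 2, wild-type replicate 2 or wild-type replicate 3 there was 1 rise and no fall, and without wild-type replicate 1 there were 11 rises and 6 falls. In V(D)J recombination Rag2 alone fell among 15 (6.67%, below the 7.6% of all genes). Of 19 factors of the CD4 and CD8 lineage choice (5.26% called, below 7.6% as well) only Runx3, the CD8-lineage factor, rose. It was at 67.0 and 80.2 CPM, 31.2 in the library labelled transgenic replicate 3, and 23.7, 16.6 and 17.5 in the wild type (1.93, SE 0.21, adjusted p = 0.00772), and its call was lost without transgenic replicate 2. Of 28 genes of positive selection and maturation Plac8 (3.01) and Cd44 (1.61) rose, and Egr2 (-1.85), Cd69 and Itm2a (-0.81) fell, 17.9% of the list. That list had 1 rise and 0 falls without transgenic replicate 2. Receptors of trafficking included a rise of Itgb7, the beta7 integrin, from 27.9, 23.1 and 21.2 CPM to 113 and 89.9 (2.07, SE 0.19, adjusted p = 0.00504), with 37.7 in that library.

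Of 19 tested genes of LMO2's partners 3 rose and 1 fell (21.1%, beside 7.6% of all genes), with a median of 0.20. Lyl1 was at 3.66 and 36.9 CPM in transgenic replicates 1 and 2, 1.46 in the library labelled transgenic replicate 3, and 0.36, 0.233 and 0.737 in the wild type (5.48, SE 0.99, adjusted p = 0.0339). Gata1 (2.68) rose from very low levels, and Erg was at 0.431 and 8.58 CPM against at most 0.0778. The E-protein gene Tcf4 fell (-0.97) and was the only call among 9 tested E-protein and Id genes (11.1%). These 4 calls were lost in at least 3 of the 5 fits that leave out a library.

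Of 14 tested stem and progenitor genes 4 rose (Kit, Lyl1, Erg and Nfe2) and 3 fell (Hoxa5, Hoxa7 and Hlf), with a median of 0.90. That is 50% of the genes tested, beside 7.6% of all genes. Kit, the stem cell factor receptor, was at 13.7 and 34.8 CPM, 4.42 in the library labelled transgenic replicate 3, and 2.61, 2.33 and 3.10 in the wild type (3.17, SE 0.41, adjusted p = 0.014), and stayed called with each library left out. Hoxa5 had no count in transgenic replicates 1 and 2 and stood at 0.87 CPM in that library and 0.946 to 1.13 in the wild type. The stem and progenitor list had 1 rise and 1 fall without wild-type replicate 2 or 3. Without wild-type replicate 1 it had 5 rises and 3 falls. With only transgenic replicate 1 against the wild type its median was 0.64. Among 29 tested T-cell leukaemia genes Notch1, Jak3 (1.10), Cdkn2a (5.62) and Rpl10 (0.68) rose and Cdkn1b (-0.87), the p27 inhibitor, fell. These are 17.2% of the genes tested. Cdkn2a, the locus of p16 and p19ARF, remained low, at 1.22 and 6.17 CPM against at most 0.225. The leukaemia list had 1 rise and 0 falls without wild-type replicate 2 or 3, and 9 rises and 5 falls without wild-type replicate 1.

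The calls among genes of division and growth were rises. Of 40 tested cell-cycle genes 8 rose and 0 fell (20%, beside 7.6% of all genes, with a median of 0.63). Among the rises were the mitotic genes Cdc20 (0.98), Plk1 (1.02) and Ccnb2 (0.74) and the replication licensing gene Cdc6 (1.14). Ccnb2 was at 180 and 189 CPM in transgenic replicates 1 and 2, 176 in the library labelled transgenic replicate 3, and 112, 114 and 107 in the wild type. Mki67, the usual proliferation marker, did not pass, at 334 and 882 CPM against 381, 1450 and 1203. Of 79 genes of cytosolic ribosomal proteins 11 rose and 0 fell (13.9%, median 0.59). Rps26 was at 733 and 764 CPM against 471, 397 and 366 (0.86, SE 0.17, adjusted p = 0.0405), with 504 in the library labelled transgenic replicate 3. Of 30 nucleolar and MYC-responsive genes 8 rose and 0 fell (26.7%, median 0.77). Among them were Srm (1.52), of spermidine synthesis, Shmt2 (1.59), of mitochondrial serine metabolism, Slc7a5 (1.75), an amino acid transporter, and Nme1 (0.85). Myc itself missed the threshold (1.29, SE 0.33, adjusted p = 0.0577), at 35.3 and 82.4 CPM against 23.8, 24.3 and 23.7. In these 3 lists, in that order, 0, 0 and 3 members rose without wild-type replicate 2, and 0, 0 and 2 without wild-type replicate 3. No member fell in either fit. Without wild-type replicate 1, 16, 58 and 20 rose, and 1, 0 and 1 fell. With only transgenic replicate 1 against the wild type the list medians were 0.41, 0.69 and 0.54.

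Among inhibitors of division and p53 targets 3 of 23 rose and 2 fell (21.7%, beside 7.6% of all genes). Cdkn1a, the p21 inhibitor, was at 4.49 and 15.9 CPM, 2.09 in the library labelled transgenic replicate 3, and 1.71, 1.67 and 0.97 in the wild type (2.80, SE 0.57, adjusted p = 0.0411). Phlda3 rose as well (2.34), while Fas fell (-0.95). No member of this list was called without transgenic replicate 2, wild-type replicate 2 or wild-type replicate 3. None of 15 BCL2-family genes passed, with 4 upward at an unadjusted p under 0.05 in the fit of all 6 libraries. Interferon-stimulated genes had 1 call of 30 (3.33%), Gbp7, which fell (-1.57), and heat-shock chaperones none of 13. Of 8 tested genes of DNA sensing and inflammasomes Tmem173 rose (1.54, SE 0.19) and Aim2 fell (25% called). Of 20 immediate-early genes Egr2 alone fell (5%).

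Of the 16 genes of IL-7 and IL-2 receptor signalling 5 rose and 0 fell, with 1 rise left without transgenic replicate 2. They were Il2ra, Il2rb (1.86), Jak3, Socs3 (1.12), a feedback inhibitor of cytokine receptors, and Stat5a (1.37), their transcription factor. These rises are 31.2% of the list, beside 7.6% of all genes. Il2ra was at 37.2 and 53.9 CPM, 22.5 in the library labelled transgenic replicate 3, and 12.2, 11.6 and 13.3 in the wild type (SE 0.21, adjusted p = 0.00848). Stat5a was at 389 and 541 CPM against 199, 164 and 173, with 202 in that library. Lag3, an inhibitory receptor gene, fell from 18.0, 13.6 and 16.5 CPM to 2.15 and 2.89 (-2.67, SE 0.29, adjusted p = 0.00695), with 16.0 in that library.

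**Figure D2:**
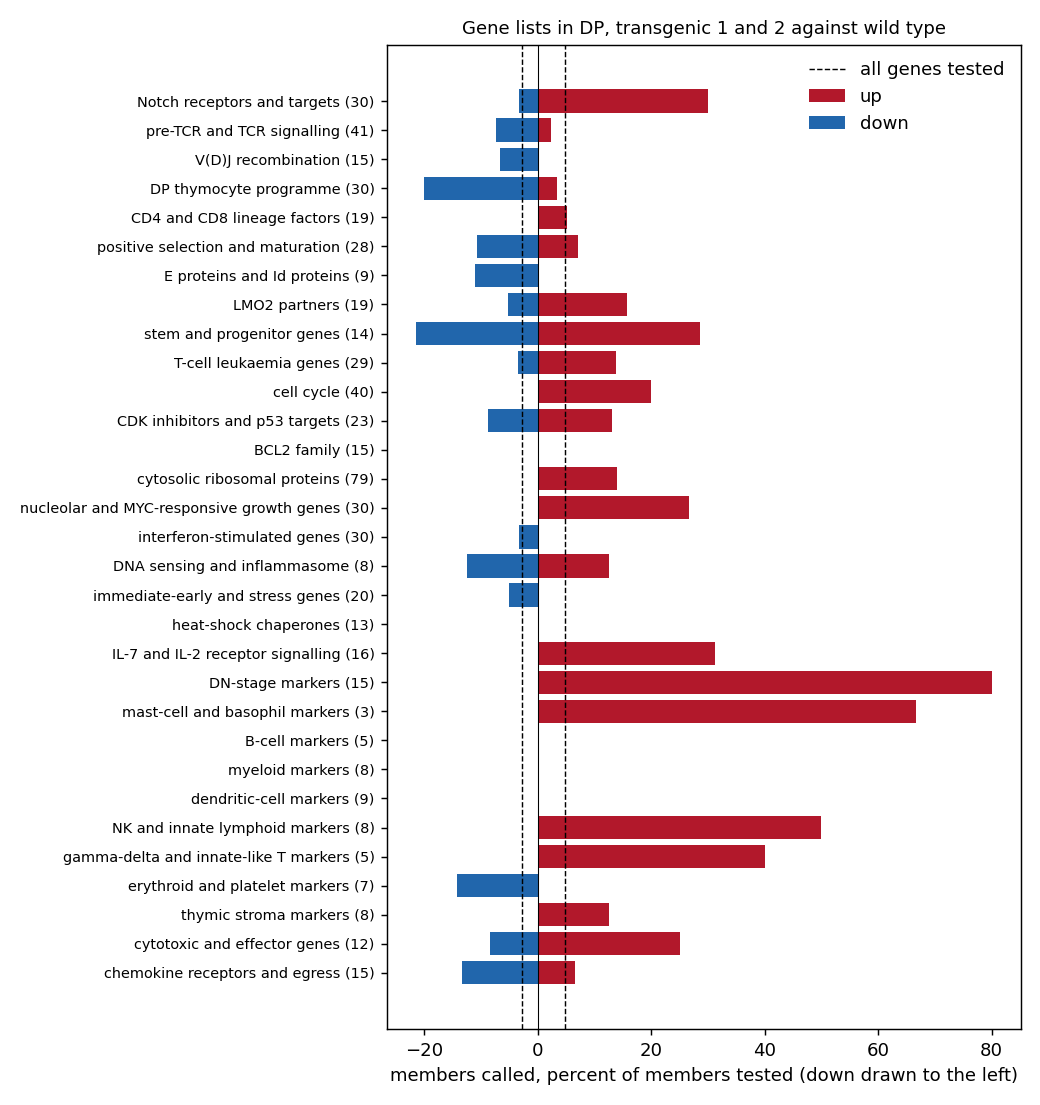
Share of tested members of each gene list (number tested in brackets) that rose (red, to the right) or fell (blue, to the left) in the fit of 5 libraries, in percent, with dashed lines at the shares over all genes tested, 4.77% and 2.83%. DN-stage markers reached the largest share of rises (12 of 15), and no member of the cell-cycle, ribosomal or growth lists fell.

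Markers of other cells moved as well, and their part in the results above was not tested. Of 15 genes that mark the earlier double-negative stages, 12 rose, all of which other lists also hold, and 0 fell (median 2.12). These rises are 80% of the list, beside 7.6% of all genes. Without transgenic replicate 2 there were 6 rises, and without wild-type replicate 2 or 3 there were 7. Their summed level was 1027 and 1276 CPM in transgenic replicates 1 and 2, 223 in the library labelled transgenic replicate 3 and 164 to 172 in the wild type. In bulk samples like these, more cells of a type and more RNA per cell cannot be told apart. Of the 11 markers of mast cells and basophils 3 were tested and 2 rose, Cpa3 and Kit, and 7 were at 0 in all 6 libraries, among them the defining Fcer1a, Ms4a2, Tpsb2, Cma1 and Mcpt8. Natural killer and innate lymphoid markers had 4 rises of 8 (0 without transgenic replicate 2), with Nkg7 at 6.14 and 19.5 CPM, 3.03 in the library labelled transgenic replicate 3, and 0.946, 0.934 and 0.465 in the wild type (4.02, SE 0.58, adjusted p = 0.0199). Their summed level was 61.6 and 87.7 CPM against 24.6 to 29.1, with 51.2 in that library. The rises among these markers are 50% of those tested.

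Of 5 tested gamma-delta and innate-like genes Sox13 (2.84 and 38.8 CPM against at most 0.766) and Cd163l1 (7.36 and 1.69 against at most 0.117) rose. Il17a was at 0 in all 6 libraries and Zbtb16 at 0.627 CPM or less. The rises are 40% of the few genes tested, beside 7.6% of all genes. The summed level of the whole list was lower in the transgenic-labelled libraries, at 580 and 538 CPM in replicates 1 and 2 and 550.0 in replicate 3, against 662, 738 and 755 in the wild type. The list had 1 rise without transgenic replicate 2, wild-type replicate 2 or wild-type replicate 3. Dendritic-cell markers had no call of 9, at 153 and 270 CPM summed in transgenic replicates 1 and 2, 110 in the library labelled transgenic replicate 3, and 128, 54.7 and 51.8 in the wild type. In that sum wild-type replicate 1 overlapped the transgenic-labelled libraries. The median log2 difference of these markers was 1.69, against 0.03 over all genes tested. In the edgeR fit of all 6 libraries 6 of 8 had an unadjusted p under 0.05 upward. Without wild-type replicate 1 there were 6 rises, and without wild-type replicate 2 or 3 there were 0. B-cell (5 tested) and myeloid (8 tested) markers had no call, with sums of 17.4 to 27.4 and 23.7 to 45.3 CPM over the 6 libraries. Of 7 erythroid and platelet markers Car2, a carbonic anhydrase gene, fell from 14.1, 12.4 and 12.5 CPM to 1.29 and 0.723 (-3.67, SE 0.36, adjusted p = 0.00562), and the globin genes Hbb-bs and Hba-a1 were not called. Of 8 stromal markers the receptor gene Pdgfrb rose, at 8.40 CPM in transgenic replicate 1 and 86.5 in replicate 2 against 1.98, 1.75 and 2.48. Of 12 cytotoxic genes 3 rose, Gzma (1.19), Gzmb (3.05) and Nkg7, and 1 fell, Lag3 (33.3% called). There were 0 rises and 1 fall without transgenic replicate 2.

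The library labelled transgenic replicate 3 was then set on the scale of the calls, with 0 at the wild-type mean and 1 at the mean of transgenic replicates 1 and 2 in log2(CPM + 0.5). This place is a description, since the calls and the scale share the wild-type libraries. For the genes that rose its median place was 0.20, and it lay above all wild-type libraries for 358 of 569 (62.9%), against 25% of all genes tested. For those that fell the median was 0.18, and it lay below all wild-type libraries for 138 of 337 (41%), against 20%. The place is a ratio to the change, so that an equal difference from the wild type gives a smaller place for a larger change. For rises of 8-fold or more (127 genes) the median place was 0.06, for 2-fold to 8-fold (293) 0.22 and for under 2-fold (149) 0.32. For falls it was 0.03 (66 genes), 0.19 (190) and 0.26 (81) in the same order. The median difference of that library itself from the wild-type mean was 0.17, 0.32 and 0.27 for the rises and -0.09, -0.27 and -0.22 for the falls, in that order. Genes with a place over 0.75 numbered 15 among the rises and 13 among the falls.

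**Figure D3:**
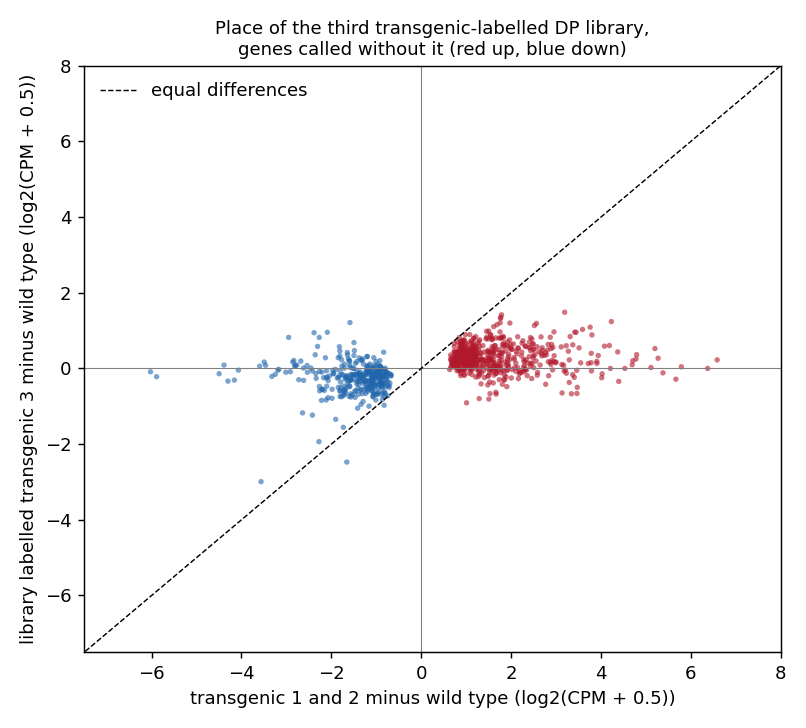
Difference of the library labelled transgenic replicate 3 from the wild-type mean (y axis) against that of transgenic replicates 1 and 2 (x axis), both in log2(CPM + 0.5), for the 906 called genes, red higher and blue lower. The points lie mostly near the horizontal line at 0 and few near the dashed line of equal differences.

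Calls were also counted by chromosome, which was known for 19383 of the 19521 genes. The median log2 difference of chromosome 15 genes from the wild-type mean, less the median of the library, was 0.16 in transgenic replicate 1, 0.61 in replicate 2 and 0.04 in the library labelled transgenic replicate 3, and -0.04 to 0.05 in the wild-type libraries. Other autosomes lay between -0.24 and 0.16 in every DP library. Of 467 tested genes on chromosome 15, 58 rose (12.4%) and 2 fell (0.428%). Without transgenic replicate 2 there were 5 rises among 476 (1.05%, against 0.802% of all genes), and without replicate 1 there were 58 among 477 (12.2%, against 3.86%). Lalba, Itgb7, Il2rb and Myc, named above, are on this chromosome, as are Rpl30 (log2 fold 0.81) and Rpl37 (0.87), among the ribosomal rises. What the shift of replicate 2 reflects was not tested.

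**Figure D4:**
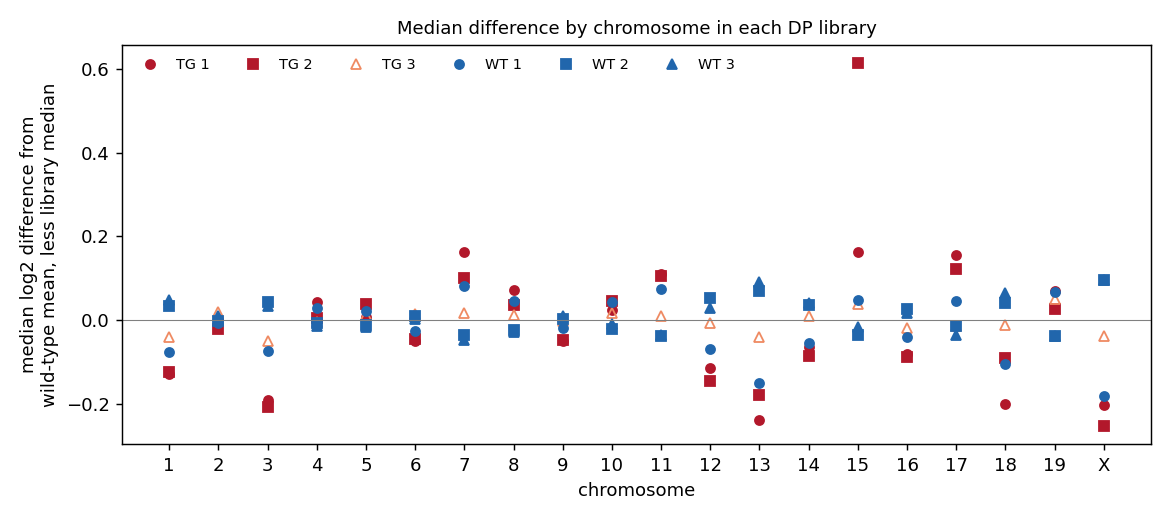
Median log2 difference from the wild-type mean, less the library's median over all genes (y axis), for each chromosome (x axis) in each DP library, with symbols by replicate. Chromosome 15 in transgenic replicate 2 stands at 0.61, above every other autosome in any library.

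The same genotype contrast was made in DN3 and CD8SP cells, which have their own libraries. In DN3, 5497 of 12037 genes (45.7%) were called, 23.4% higher and 22.2% lower, and in CD8SP 520 of 11697 (4.45%), 2.09% higher and 2.36% lower. Leaving out 1 CD8SP library changed that count to 285 (transgenic 1), 18 (wild-type 1), 9 (wild-type 2) or 329 (wild-type 3). Of the DP rises tested in both, 294 of 551 (53.4%) also rose and 30 (5.44%) fell in DN3, where 23.4% of all genes tested in both rose and 21.7% fell. Of the DP falls, 141 of 326 (43.3%) fell and 36 (11%) rose there. In CD8SP 165 of 552 DP rises (29.9%) rose and 4 (0.725%) fell, and 56 of 326 DP falls (17.2%) fell and 0 rose, with 2.04% of all genes up and 2.19% down. The DP rises held 67.6% of the CD8SP rises and the DP falls 20.3% of the CD8SP falls. Tbx4, Lalba and Sobp rose in both other stages, and Aim2 fell in both, with log2 folds of -4.99 in DN3 and -4.12 in CD8SP.

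Several of the Notch genes that rose in DP differed between DP and DN3. Ptcra fell in transgenic DN3 cells (log2 fold -3.11, adjusted p = 0.000562), Notch3 (-0.65) and Hes1 (-0.77) fell there by less, and Notch1 (0.58) and Dtx1 (0.65) rose by less than in DP. Spib was at -2.28 there, whereas Heyl (2.75), Il2ra (0.34) and Ephb2 (0.62) were positive as in DP. In CD8SP every Notch gene that rose in DP had a positive log2 fold. These were 4.96 for Heyl, 2.48 for Il2ra, 2.27 for Hes1, 1.84 for Notch3 and 1.31 for Notch1. Smaller ones were 1.27 for Ephb2, 0.97 for Dtx1, 0.76 for Spib and 0.52 for Ptcra. The genotype effect in DP minus that in DN3 was 4.94 log2 units for Ptcra (adjusted p = 6.44e-05), 4.82 for Hes1, 4.20 for Dtx1, 3.03 for Notch3 and 1.51 for Notch1 (adjusted p = 0.00197) in a fit of both stages without the library labelled transgenic replicate 3, in which 20.5% of all genes passed. With that library 10.2% of all genes passed, 4.88% with a higher and 5.29% with a lower effect in DP, and the differences were 4.60 for Ptcra (adjusted p = 0.00105), 4.27 for Hes1 (0.0236) and 2.60 for Notch3 (0.029), and Dtx1 (0.0581) and Notch1 (0.154) missed the threshold. Cdkn1a went the same way as Ptcra, falling in DN3 (-5.08), with a difference of 7.47 between the stages with all 12 libraries (SE 1.06, adjusted p = 0.00256) and 7.92 without that library. For Lgals3bp, Tmem173 and Hvcn1 the DP effect exceeded the CD8SP effect by 1.38, 2.06 and 2.14 log2 units with all 12 libraries (adjusted p = 0.0474, 0.0414 and 0.0414). Their log2 folds were -0.39, -0.69 and -0.87 in CD8SP and 0.24, 0.52 and 0.67 in DN3. These genes were named above for small p-values in the same DP libraries. The Notch genes and Cdkn1a, set against DN3, were likewise named for their calls in DP libraries that these fits share. Their p-values are therefore not separate support. Such a difference from CD8SP was called for 0.14% of all genes with all 12 libraries, each time higher in DP, and for 0.193% without the library labelled transgenic replicate 3. With each of the 12 libraries left out in turn, 9 of the 12 fits called no gene.

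**Figure D5:**
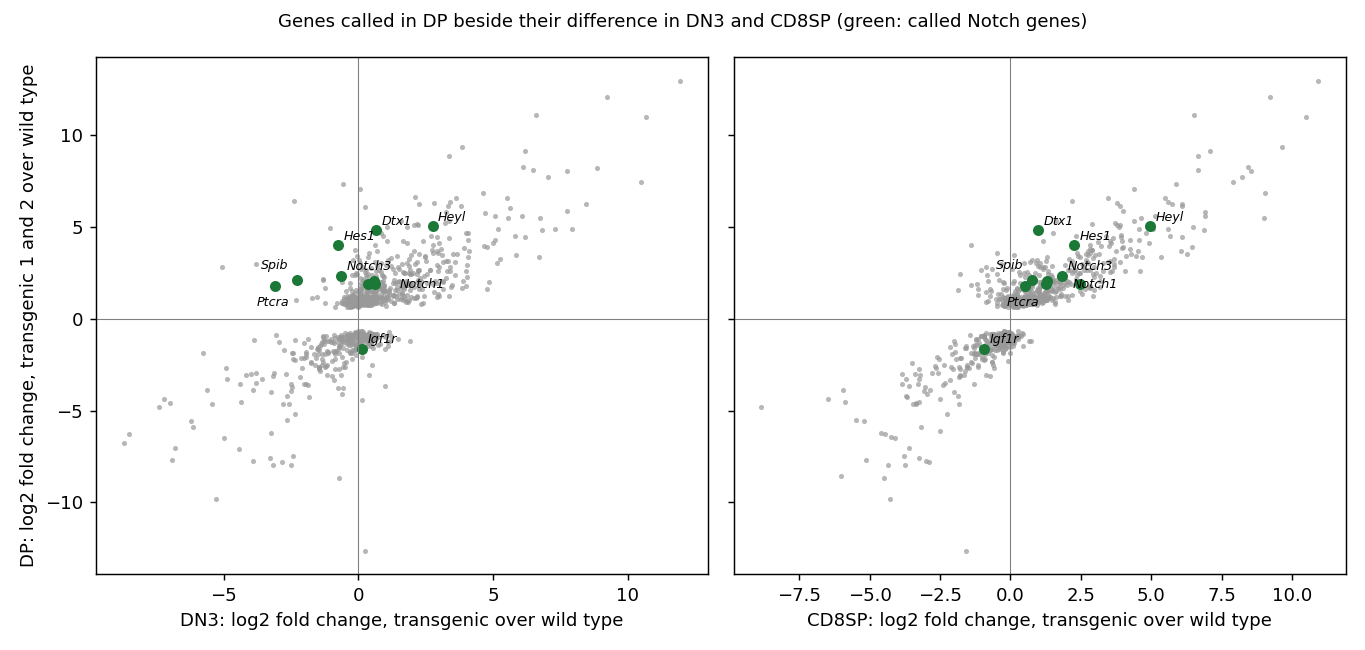
Log2 fold change in DP (y axis, fit of 5 libraries) against that in DN3 (left) and CD8SP (right) for genes called in DP, with called Notch genes in green. Folds of genes near 0 counts depend on the prior count of 0.125. Ptcra, Spib, Hes1 and Notch3 lie left of 0 in DN3 and above 0 in DP.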

How the data were processed

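RNA of sorted cells was sequenced. Per the labels and the submitters' processing notes, which list HISAT among the tools and mm10 beside mm9 as builds, without versions or roles, the authors deposited whole-number read counts per gene and FPKM values. No counting tool or strand setting is given in the sources used here, so overlapping genes and near-identical copies are uncertain. The deposited FPKM was used only to set Lmo2 beside Ldb1. Peak lists, and 4 columns (2 of them counts) of samples outside the labels, were not used.

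The test of counts was that of edgeR 4.0.16 (R 4.3.3): filterByExpr (minimum count 10, minimum total 15), TMM, and the robust quasi-likelihood test, two-sided, with Benjamini-Hochberg adjustment at 0.05 and a prior count of 0.125. Each stage was fitted on its own libraries, DP with 3 against 3 and again without the library labelled transgenic replicate 3. Interactions with DN3 and CD8SP used both stages. DESeq2 1.42.0 was an alternative, beside other scaling, no filter, a replicate block, a term for the column suffix N (2 DP libraries) and leaving out each library.

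Genes were named by rule: Lmo2, the 12 largest increases and decreases whose groups do not overlap with a mean of at least 5 CPM, the 10 smallest p of the 3 against 3 fit, up to 4 members per list by p, and 5 per interaction and direction. List members called beyond these 4 are named to complete a count. The members and lists were chosen with earlier results of these data known. Predicted genes and T-cell receptor segments were left out, and some genes that the rule names are not reported here.

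The tests were tried on simulated DP counts with 200 genes changed. In the 3 against 3 case the change was put into every transgenic-labelled library, the third included. In the data that library mostly lay near the wild type, so this recovery does not hold for changes that it lacks. Of 8-fold changes 97.5% were recovered with 3 against 3 (11649 genes) and 96.5% without the third library (11919 genes), and of 2-fold changes 27.5% and 19.5%. False calls among unchanged genes numbered 13 and 12 with 8-fold changes and 5 and 8 with 2-fold changes, in the same order. Pairing was checked: same-numbered deviations correlated at 0.375, -0.078 and 0.436. With 1 library of each genotype per number, these values neither show nor exclude pairing. Numbers were not taken as pairs. Upstream sequences are RefSeq's, from GRCm38.p6.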

Additional observations from a re-analysis of the deposited data

Results flagged for a closer look

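The genotype effect differed between DP and DN3 for 1266 of 12451 genes (10.2%) in an interaction fit of 12 libraries (edgeR quasi-likelihood test, adjusted p under 0.05). Without the library labelled transgenic replicate 3 there were 2598 (20.5%). Log2 differences below are the DP effect minus the effect in the other stage.

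Among the most positive differences from DN3 by rule were Duxbl1 (10.75), Bcl11a (10.39), Ica1 (10.33) and Prss30 (9.77). In DP these genes stood at 1.22 CPM or less in every library, and each fell in transgenic DN3 cells. Bcl11a encodes a zinc-finger repressor of early lymphoid cells. Without the library labelled transgenic replicate 3 Duxbl1 had no count in transgenic DP cells and an adjusted p of 1, while Bcl11a stayed at 10.48. The most negative were Shank3 (-7.30), Podxl (-5.70), Slc40a1 (-5.49), Lsmem1 (-5.40) and Fam184b (-5.36). None of these 5 was called in DP.

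Between DP and CD8SP the effect differed for 17 of 12186 genes (0.14%), each higher in DP, and for 24 (0.193%) without the library labelled transgenic replicate 3. In 9 of the 12 fits that leave out 1 library no gene was called. With all 12 libraries the calls included Cd72 (5.36), Ggt1 (4.10), Rarg (3.79) and Ctsw (3.22), with adjusted p of 0.0414 to 0.0453. Ctsw, a protease gene of cytotoxic cells, was at 10.2, 8.53 and 5.74 CPM in the transgenic-labelled DP libraries against 2.88 to 3.62, and fell in CD8SP (-1.87).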

How the results depend on the processing

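With 3 against 3 DP libraries the count of calls was 0 with RLE scaling, no filter, the block and the suffix term, 617 with DESeq2 and 695 in a fit of all RNA libraries, and 0 to 906 with a library left out. Without the library labelled transgenic replicate 3 it was 874 with RLE, 1437 without the filter, 378 with the replicate block (198 higher, 180 lower), 582 with the suffix term (404 higher, 178 lower), 2878 with DESeq2, 2362 in the fit of all libraries (1141 higher, 1221 lower), and 130 to 4347 with a further library left out. The cause of these moves was not tested. The design text calls samples paired without saying what a replicate number shares, and not every DP library correlated best with its own number; the block gave 798 calls in CD8SP and 38 for the DP and CD8SP interaction (29 without the filter). With a library left out the counts were 3802 to 6185 in DN3, 9 to 724 in CD8SP, 352 to 2598 for the interaction with DN3, and 0 to 52 for that with CD8SP, which had 0 in 9 of 12 such fits. Of 31 lists 26 had a call, 0 with 3 against 3 libraries, and 13 to 31 with a library left out, an alternative chosen after seeing the data. Among 116 named genes no called one reversed its direction in a setting that fitted it. Of these genes 100 were called. Without transgenic replicate 2, 66 of the 100 lost their call. With the replicate block 44 did, namely Arv1, Cacna1e, Ccnb2, Ccr9, Cdc20, Cdc6, Cdkn1a, Cdkn1b, Cdkn2a, Cpa3, Ctsw, Endou, Fas, Gata1, Gbp7, Gprc5b, Gramd1a, Gzmb, Hlf, Hoxa5, Hoxa7, Il2rb, Itm2a, Jak3, Malt1, Mdga1, Nfe2, Nfkbid, Nme1, Pdgfrb, Phlda3, Plk1, Rmnd5a, Rpl10, Rpl30, Rpl37, Rps26, Slc7a5, Sox13, Spib, Tcf4, Tdrd5, Tespa1 and Tiparp. RLE scaling shifted the median of all genes by under 0.1. T-cell receptor segment usage was not run. Depth limits genes of few counts, such as Gata1 and Gzmb.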
